A study of Homo sapiens with 3 samples.

Results

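The 42 genes described here build the contacts between epithelial cells, drive or mark the epithelial-to-mesenchymal transition (EMT), or cut and protect the extracellular matrix. They were chosen by name, as the rows of the deposited gene table whose symbol is on a fixed list, and all 42 were found among the 58302 genes of that table. HCT116, a human line established from a colorectal cancer, supplied the RNA, which was sequenced in 3 libraries. Per the labels, 1 library came from cells given a control small interfering RNA (siRNA), and 2 came from cells each given a different siRNA against DUOX2, an oxidase that makes hydrogen peroxide. The labels name no dose, time or culture for any library, and all 3 come from the same line. The study addressed cells low in DUOX2, and its interest in invasion and migration is the reason these genes are set apart.

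Epithelial cells hold together through adherens junctions, in which cadherins bind across the gap and catenins tie them to actin, through desmosomes, which anchor keratin filaments, and through tight junctions, in which claudins and occludin seal the gap. In EMT, transcription factors of the SNAI, ZEB and TWIST families bind E-box sequences and repress junction genes, and cells gain proteins such as vimentin. Matrix metalloproteinases (MMPs), ADAM proteases and the urokinase system cut matrix or cell-surface proteins, and TIMPs inhibit the metalloproteinases.

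The labels give both strands of each siRNA, and the sense strands are shown here because the siRNAs define the groups; the capitals mark the overhang at the 3′ end.

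DUOX2 siRNA 1: ggaggacaacauagugguuTT

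DUOX2 siRNA 2: ccaugaugcgauccuucauTT

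control siRNA: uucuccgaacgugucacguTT

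The libraries held between 17589502 and 19130768 counts, so that 3 counts, the limit used for a count of 0, correspond to 0.157 to 0.171 CPM, a count scaled to its library's total. Counts are given throughout in the order control, siRNA 1, siRNA 2. DUOX2 itself had 2, 2 and 0 counts, so a difference in the targeted gene was not detectable at this depth and it gives no check of the labels. Of 11 colorectal epithelial markers EPCAM, KRT8, KRT18, KRT19, VIL1 and CDX2 were well covered, with 883 counts or more in every library, whereas CDH17, CEACAM5 and CEACAM6 had 0 counts. The library protocol in the labels speaks of retinas, but 9 retina markers summed to between 0.796 and 1.36 CPM and 6 of them, SAG, GNAT1, PDE6B and CRX included, had 0 counts. Markers of fibroblasts summed to between 2.35 and 3.81 CPM (5 of 10 at 0, DCN and LUM included), most of it from COL1A1, a fibrillar collagen chain, with 57, 39 and 57 counts. Those of blood cells summed to between 2.23 and 5.57 CPM (2 of 7 at 0, PTPRC and HBB). Among them HBA1, an alpha-globin gene with a near-identical copy that makes its reads uncertain, had 58, 12 and 21 counts. Those of endothelium summed to between 0.261 and 0.637 CPM (3 of 5 at 0, PECAM1 and CDH5 included).

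Among the 42 genes, 5 had 0 counts in all 3 libraries. These were CDH2, the N-cadherin gene that mesenchymal cells use, the EMT factors TWIST1 and ZEB2, and the proteases MMP7 and MMP13. The other 37 genes passed the filter on low counts and were tested. MMP1 passed it only through the siRNA libraries, with 8 counts in the control and 11 with each siRNA. The 42 genes together took 0.449% of the control's counts, 0.421% with siRNA 1 and 0.452% with siRNA 2.

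Compared as CPM per kilobase of exon, the most abundant members in the control were the mesenchymal marker VIM and the junction genes DSP and CTNNA1. VIM, the intermediate filament vimentin, stood at 94.8, DSP, the desmosomal linker desmoplakin, at 90.2 and CTNNA1, the actin-binding alpha-catenin, at 69.0 on this scale. TIMP1 followed at 48.5, the tight junction scaffold TJP1 (ZO-1) at 33.9 and JUP (plakoglobin) at 31.9. CDH1, the E-cadherin gene, was at 13.5 and CDH3 (P-cadherin) at 9.86. FN1 (fibronectin), the other mesenchymal marker among the members, was at 10.2, below CDH1. The EMT factors with reads were lower, with SNAI1 at 7.96, SNAI2 at 1.83 and ZEB1 at 1.12. The order of the top pair depends on the gene length, because the authors' deposited FPKM put DSP (59.6) above VIM (49.4). The length the authors used was over 1.1 times the merged exon length for 27 of the 37 genes with reads. Apart from this comparison of orders, the deposited FPKM is therefore used here only within a gene. With 1 control library these levels carry no replicate error, and in bulk RNA fewer cells with a transcript and less of it per cell cannot be told apart.

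**Figure D1:**
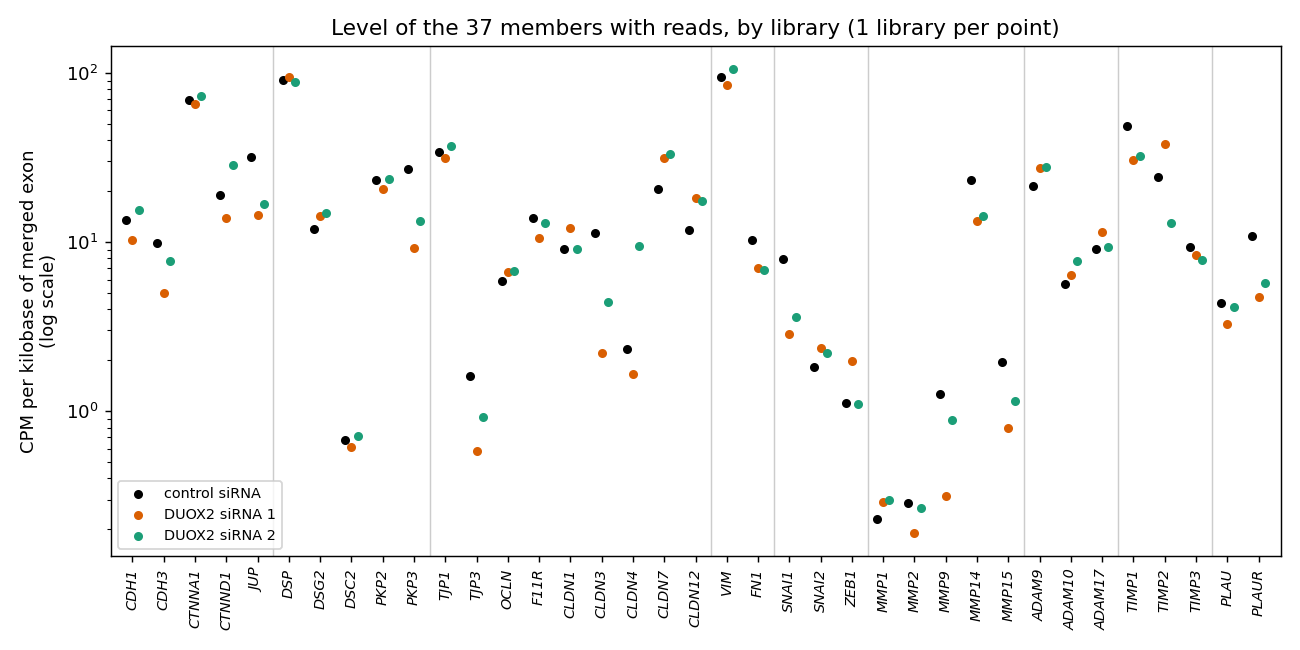
Level of the 37 members with reads in each library, as CPM per kilobase of merged exon on a log axis, with 1 point per library and grey lines between gene groups. VIM and DSP lie near the top in all 3 libraries, and CLDN3, SNAI1, JUP and PKP3 have both siRNA points below the control.

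The comparison of both DUOX2 siRNA libraries with the control asked which of these genes differ when DUOX2 is targeted. None of the 37 tested genes passed edgeR's quasi-likelihood test after Benjamini-Hochberg adjustment over all 17263 genes tested, against a background of 0.0174% called higher and 0.0405% called lower. At an unadjusted edgeR p under 0.05 there were 9 lower members, where 14.5% of all genes were lower by that rule, and 3 higher members, where 11.5% were. The lower ones were CLDN3, SNAI1, PKP3, TJP3, PLAUR, JUP, MMP15, MMP14 and TIMP1, and the higher ones were CLDN7, CLDN12 and ADAM9. The median log2 fold change of the tested members was 0.06, beside 0.01 over all genes tested. DESeq2, run as an alternative, called JUP (adjusted p = 0.0270) and PKP3 (adjusted p = 0.0212) lower, where it called 1.76% of all genes lower, and called 0 members higher against 1.52% of all genes. DESeq2 gave no adjusted p for 9 of the tested members, SNAI1 and CLDN3 among them. Over all genes it gave an adjusted p to 10234 of the 17263 tested. The shares of 1.76% and 1.52% are over all 17263, so they are lower than the shares among genes with an adjusted p. The labels do not state whether each library had its own culture. These p-values rest on the spread between 2 libraries that also differ in siRNA sequence, together with a variance shared across genes. In edgeR the shared part had 4.66 prior degrees of freedom beside 1 residual degree of freedom. Its p-values and SEs are therefore not measures of a gene's own replicate spread.

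Counting genes that differed from the control by 2-fold or more on the log2 CPM scale, 7 members were lower with siRNA 1 (background 12.4% of all genes tested) and 0 were higher (8.06%). Fold values of each siRNA use library totals scaled by edgeR's TMM method, so they differ from ratios of the CPM printed here. With siRNA 2, 2 members were lower (7.84% of all genes) and 1 was higher (5.54%). The 7 with siRNA 1 were CLDN3, MMP9, PKP3, SNAI1, TJP3, MMP15 and PLAUR. JUP, with a log2 fold change of -0.99999 with siRNA 1, fell just short of the cut. With siRNA 2 the lower ones were CLDN3 and SNAI1, and CLDN4 was the higher one. These values come from 1 library each and have no replicate check. The siRNA 1 library also stood apart in its makeup. Mitochondrial genes took 12.1% of its counts, beside 8.58% in the control and 8.83% with siRNA 2, and its 10 most abundant genes took 11.04%, beside 7.97% and 8.22%. The part of this makeup in the members' values was not tested.

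Among the cadherins and catenins, CDH1 and CTNNA1 stayed near the control, while plakoglobin lay below it with both siRNAs. CDH1 (GRCh38 chromosome 16, 68737225 to 68835548) had 1472, 1215 and 1792 counts. The siRNA libraries lay on either side of the control, and the edgeR log2 fold change was 0.02 ± 0.27 (SE, adjusted p = 0.975). CTNNA1 had 10719, 11048 and 12204 counts, with all 3 libraries close to each other. JUP (chromosome 17, 41754604 to 41786931), which serves both adherens junctions and desmosomes, had 2776, 1369 and 1563 counts. Both siRNA libraries were well below the control, at 14.5 and 16.8 CPM per kilobase of exon beside 31.9, with an edgeR log2 fold change of -0.93 ± 0.19 (SE, adjusted p = 0.113). CDH3 had 1081, 593 and 902 counts, lower mainly with siRNA 1 (log2 fold change -0.85, against -0.30 with siRNA 2). Part of its exons, 11.1%, is shared with an antisense gene of 10 counts or fewer. CTNND1, the p120 catenin that stabilises cadherins at the surface, had 2917, 2331 and 4725 counts, below the control with siRNA 1 and above it with siRNA 2.

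The desmosomal genes comprised a single low member and 4 nearer to the control. PKP3 (plakophilin 3, chromosome 11, 392614 to 404908), a plaque protein, had 1806, 666 and 947 counts. Its edgeR log2 fold change was -1.18 ± 0.26 (SE, adjusted p = 0.116). Its relative PKP2 had 2875, 2763 and 3121 counts, a log2 fold change of 0.02 ± 0.19 (SE, edgeR adjusted p = 0.951). DSP had 16007, 18312 and 16745 counts. The desmosomal cadherin DSG2 had 1300, 1698 and 1742 counts, both siRNA libraries being higher (edgeR adjusted p = 0.262), and its partner DSC2 had 149, 147 and 167. Of 6 tested genes on a list of other desmosome components 0 passed edgeR's test over all genes, with 1 lower and 1 higher at an unadjusted p under 0.05, where 14.5% of all genes were lower and 11.5% higher. The list's median log2 fold change was -0.43, beside 0.01 over all genes tested. DESeq2 called the same pair of genes. The lower one was PPL, the cornified-envelope plakin periplakin, which had 4264, 1306 and 1375 counts (edgeR adjusted p = 0.0692, DESeq2 adjusted p = 2.8e-07). The higher one was PERP, a desmosomal membrane protein, which had 3403, 6449 and 6228 counts (edgeR adjusted p = 0.114, DESeq2 adjusted p = 0.0198). EVPL, another plakin, had 446, 456 and 215 counts, low with siRNA 2 alone. PKP1 had 68, 44 and 57 counts.

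The claudins, which set the tightness and selectivity of tight junctions, differed from each other in direction. CLDN3 (chromosome 7, 73768997 to 73770270) had 253, 54 and 106 counts. Both siRNA libraries were low, at 0.222-fold and 0.413-fold, and the edgeR log2 fold change was -1.68 ± 0.42 (SE, adjusted p = 0.125), the lowest among the tested members. CLDN7 (chromosome 17, 7259903 to 7263983) went the other way, with 906, 1498 and 1564 counts. Its values with the siRNAs nearly coincided, at 1.67-fold and 1.68-fold (edgeR log2 fold change 0.75 ± 0.21 SE, adjusted p = 0.131). CLDN7 shares 10.8% of its exonic bases with AC003688.1, which had 0 counts. CLDN12, an atypical claudin, had 1397, 2349 and 2208 counts, both siRNA libraries being higher (edgeR log2 fold change 0.70 ± 0.21 SE, adjusted p = 0.136). CLDN1 had 583, 848 and 623 counts, high with siRNA 1 alone.

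CLDN4, on chromosome 7 at 73799542 to 73832693 and close to CLDN3, stood apart between the siRNAs. Its counts were 193, 149 and 835. These are 10.97 CPM (95% Poisson interval 9.48 to 12.6), 7.79 CPM (6.59 to 9.14) and 44.3 CPM (41.4 to 47.5). The siRNA 2 library alone was high, at 4.18-fold, and the edgeR fit gave a log2 fold change of 1.32 ± 0.93 (SE, adjusted p = 0.389). Poisson intervals cover counting error only and leave out differences between cultures. They are too narrow where reads, which carry no molecular identifier, are copies of 1 molecule.

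The other tight junction genes were mostly flat, apart from a weakly expressed scaffold. TJP1 had 6722, 6751 and 7863 counts and occludin, OCLN, had 697, 857 and 862. F11R, the adhesion molecule JAM-A, had 1237, 1020 and 1235 counts. F11R shares 36.6% of its exonic bases with the overlapping gene AL591806.3, which itself had 27 counts or fewer, so the division of its reads is uncertain. TJP3 (ZO-3) had 119, 47 and 73 counts, both siRNA libraries being lower (edgeR log2 fold change -1.001 ± 0.38 SE, adjusted p = 0.177). On a list of 33 other tight junction genes 21 were tested and 0 passed edgeR's test over all genes, with 4 lower and 1 higher at an unadjusted p under 0.05 (14.5% and 11.5% of all genes). The median of the tested genes was -0.071, and DESeq2 called 0 of them. They include JAM3 (5, 14 and 11 counts), which passed the filter only through the siRNA libraries. By the edgeR estimate, which takes both siRNAs together, and among genes with at least 50 counts in a library, the extremes were the polarity genes PARD6A (69, 28 and 35 counts) and CRB3 (141, 56 and 85) at the low end and PARD6B (662, 1047 and 1063) and CXADR, the coxsackievirus and adenovirus receptor (2284, 2948 and 3672), at the high end. CLDN11, a further claudin singled out after its values were seen, had 728, 93 and 844 counts, low with siRNA 1 alone at 0.132-fold and at 1.13-fold with siRNA 2. Its split between the siRNAs was wider than that of CLDN4 or TIMP2, and 18.3% of its exonic bases are shared with AC026316.5, so its reads are uncertain. Of 13 tested genes on a list of other adherens junction components 0 passed, with 3 lower and 1 higher at an unadjusted p under 0.05, where all genes gave 14.5% and 11.5%. Their median was 0.20. These counts and the median include CDH11 (3, 7 and 14 counts), which passed the filter only through the siRNA 2 library. NECTIN2, an immunoglobulin-like adhesion receptor, had 1750, 827 and 935 counts (edgeR adjusted p = 0.113) and was the 1 gene of this list that DESeq2 called (adjusted p = 0.0269), and ARVCF, a catenin, had 115, 63 and 76. EPCAM, the epithelial adhesion molecule, had 7646, 12181 and 11926 (edgeR adjusted p = 0.133), and NECTIN3 had 34, 70 and 45.

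**Figure D2:**
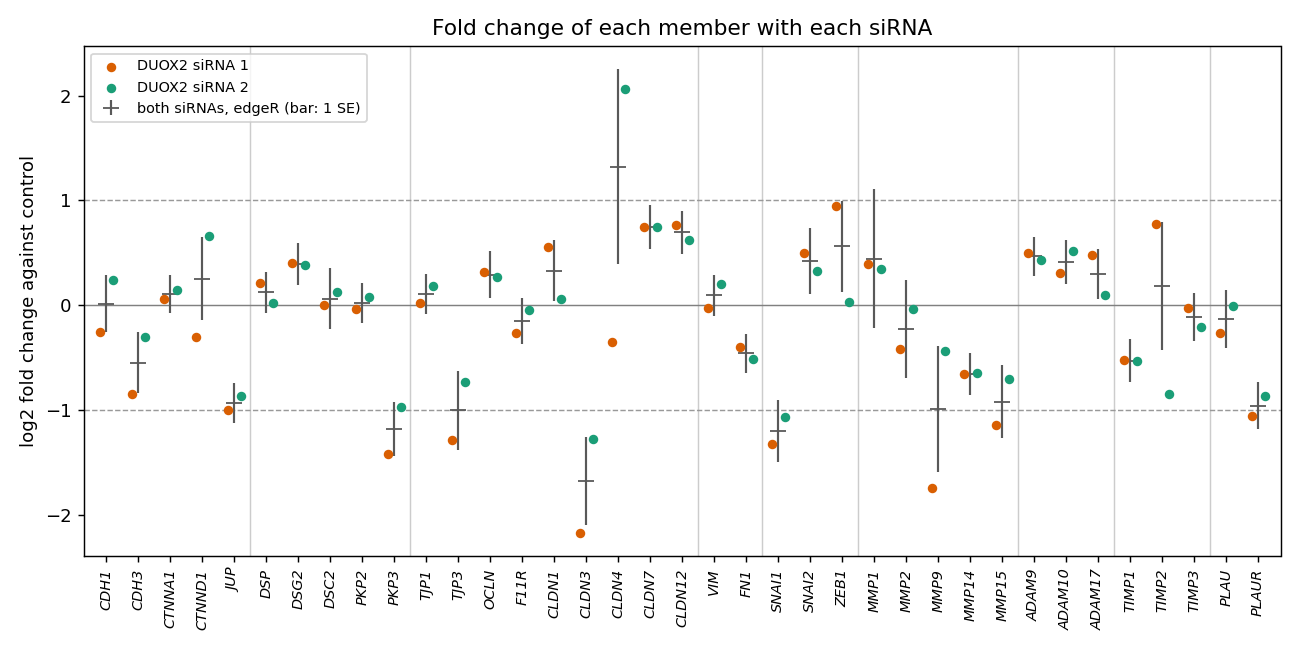
Log2 fold change against the control for each of the 37 tested members, with coloured points for the single siRNA libraries, grey bars for the edgeR estimate ± 1 SE and dashed lines at 2-fold. CLDN4 and TIMP2 have their siRNA points on opposite sides of 0, while for CLDN7, JUP and MMP14 both points lie together.

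Of the mesenchymal markers and EMT factors, SNAI1 was lower and the remaining genes with reads were not past any threshold used. SNAI1 (chromosome 20, 49982999 to 49988886), the Snail repressor of CDH1, had 236, 92 and 115 counts. In CPM these were 13.4 (95% Poisson interval 11.8 to 15.2), 4.81 CPM (3.88 to 5.90) and 6.11 CPM (5.04 to 7.33). Both siRNA libraries were low, at 0.400-fold and 0.479-fold, with an edgeR log2 fold change of -1.20 ± 0.29 (SE, adjusted p = 0.125). Its relative SNAI2 (Slug) had 109, 153 and 141 counts, both siRNA libraries being higher (edgeR log2 fold change 0.42 ± 0.31 SE, adjusted p = 0.407). ZEB1, a repressor of epithelial genes, had 171, 327 and 179 counts, and was high with siRNA 1 alone. ZEB1-AS1, its antisense neighbour, had 109, 201 and 141 counts and shares 4.23% of the exonic bases of ZEB1. The treatment of strand is not given in the sources used here, so these reads cannot be told apart.

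VIM had 8601, 8368 and 10173 counts, close together in all 3 libraries (edgeR log2 fold change 0.10 ± 0.20 SE, adjusted p = 0.774). Of its exonic bases 12.4% are shared with the antisense gene VIM-AS1, which had 46, 49 and 36 counts. FN1, the matrix protein fibronectin, had 3117, 2329 and 2237 counts, both siRNA libraries being lower (edgeR log2 fold change -0.46 ± 0.19 SE, adjusted p = 0.196). Of 27 tested genes on a list of other EMT factors and mesenchymal genes 0 passed edgeR's test over all genes, with 3 lower and 1 higher at an unadjusted p under 0.05, beside 14.5% and 11.5% of all genes. The list's median was -0.34, beside 0.01 over all genes. The growth factor TGFB1 had 1803, 923 and 1029 counts and was the 1 gene of the list called by DESeq2 (adjusted p = 0.0498). The fibronectin receptor subunit ITGA5 had 1195, 687 and 862. At the other end S100A4, a calcium-binding protein, had 2072, 2846 and 3214 and SMAD2, a signal transducer of TGF-beta, had 672, 747 and 903.

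The matrix metalloproteinases with reads were at or below the control, apart from MMP1 at the limit of detection. MMP14 (MT1-MMP), the membrane-bound collagenase, was the abundant one, with 1825, 1141 and 1195 counts. Its edgeR log2 fold change was -0.65 ± 0.20 (SE, adjusted p = 0.139), and the values with the siRNAs were almost equal. MMP15, another membrane-type enzyme, had 152, 67 and 95 counts (edgeR adjusted p = 0.176). The gelatinase MMP9 had 52, 14 and 39 counts, low with siRNA 1. Its level was 2.96 CPM in the control (95% Poisson interval 2.21 to 3.88), 0.732 CPM with siRNA 1 (0.400 to 1.23) and 2.07 CPM with siRNA 2 (1.47 to 2.83). MMP2, the other gelatinase, had 25, 18 and 25 counts, and the intervals of its 3 libraries overlapped.

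The ADAM proteases, which shed surface proteins, had counts above the control in every siRNA library, with none past the adjusted test. ADAM9 had 2593, 3614 and 3601 counts (edgeR log2 fold change 0.47 ± 0.19 SE, adjusted p = 0.190). ADAM10 had 1605, 1963 and 2358 counts (edgeR adjusted p = 0.260), and ADAM17, which releases TNF and EGFR ligands, had 1721, 2369 and 1894. The exons of ADAM17 overlap those of IAH1 on the other strand over 12.3% of their bases. IAH1 had 570, 678 and 684 counts, and without a stated treatment of strand the reads of the pair cannot be told apart.

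TIMP2 showed the widest gap upward from siRNA 2 to siRNA 1 among the members. Its counts were 2408, 4082 and 1376. These are 137 CPM (95% Poisson interval 131 to 142), 213 CPM (207 to 220) and 73.1 CPM (69.3 to 77.0). The control lay between the siRNA libraries, at 1.72-fold with siRNA 1 and 0.557-fold with siRNA 2, so the edgeR estimate of 0.19 ± 0.61 (SE, adjusted p = 0.864) stands for neither. TIMP1 had 1314, 905 and 931 counts, both siRNA libraries being lower (edgeR log2 fold change -0.53 ± 0.21 SE, adjusted p = 0.184), and TIMP3 had 761, 740 and 677. Between the siRNA libraries themselves, TIMP2 was the 1 member at least 2-fold higher with siRNA 1, where 3.26% of all genes were. CLDN4 and MMP9 were the 2 members at least 2-fold lower with siRNA 1 than with siRNA 2, where 3.3% of all genes were. No test of these differences was possible with 1 library each.

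In the urokinase system the receptor was lower and the enzyme was not. PLAUR (chromosome 19, 43646095 to 43670547), which holds urokinase at the cell surface, had 851, 404 and 480 counts. Both siRNA libraries were low, at 0.482-fold and 0.550-fold (edgeR log2 fold change -0.96 ± 0.23 SE, adjusted p = 0.123). PLAU, urokinase itself, had 225, 185 and 230 counts (edgeR log2 fold change -0.13 ± 0.28 SE, adjusted p = 0.787). Of its exonic bases 31.1% are shared with C10orf55 on the other strand, which had 4 counts or fewer. Of 21 tested genes on a list of other invasion proteases and inhibitors 0 passed edgeR's test over all genes, with 5 lower and 1 higher at an unadjusted p under 0.05, set against 14.5% and 11.5% of all genes. Their median was -0.37. FURIN, the convertase that activates MMP14 and ADAM precursors, had 4085, 1962 and 1439 counts (edgeR adjusted p = 0.112) and was the 1 gene of the list called by DESeq2 (adjusted p = 0.0058). The serine protease inhibitor SPINT1 had 1399, 550 and 892. The lysosomal protease CTSL had 908, 1475 and 1382 and the MMP inhibitor RECK had 103, 144 and 130.

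The members' fold changes followed the GC content of their transcripts, as those of all genes did. Across genes, which share the same 3 libraries and are not independent replicates, the Spearman correlation between GC content and edgeR log2 fold change was -0.71 over the 37 members (Pearson -0.71) and -0.69 over 17209 genes (Pearson -0.53). Of 13 members of at least 55% GC, 11 had a fold change below 0, with a median of -0.93, beside -0.69 over the 4921 tested genes of that class. Of 13 members under 45% GC, 12 were above 0, with a median of 0.39, beside 0.43 over 6227 genes. The 12, and the 37 members of the correlation, include MMP1, which passed the filter only through the siRNA libraries. CLDN3 (69.2% GC), PKP3 (66.7%), MMP15 (66.0%), TJP3 (63.2%), MMP9 (62.4%) and JUP (61.5%) lay at the GC-rich end, where most genes were lower. CLDN7 (59.6%) and CLDN4 (57.5%) were the 2 GC-rich members above 0, and FN1 (42.2%) was the GC-poor member below 0.

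**Figure D3:**
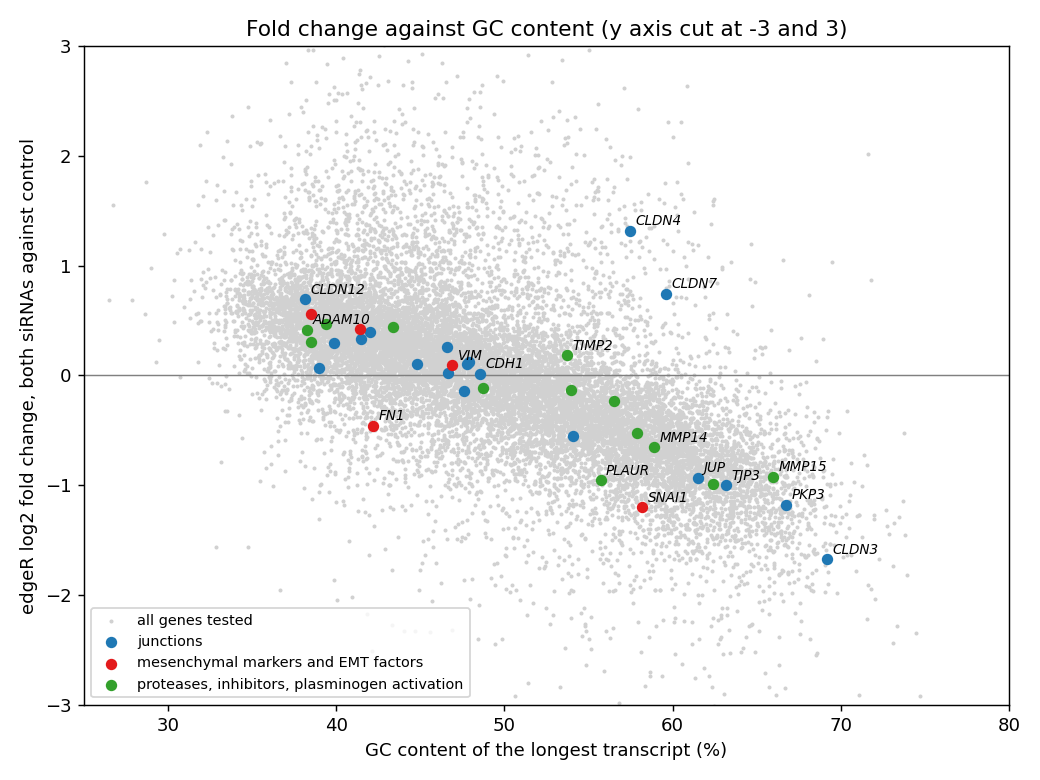
EdgeR log2 fold change of both siRNAs against the control, plotted against the GC content of the longest transcript, with grey points for all genes tested and coloured points for members. Most members lie within the grey band that descends with GC content, with CLDN7 and CLDN4 above it at 59.6% and 57.5% GC.

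With an edgeR offset for each library's GC trend, the low values of the GC-rich members moved towards 0. The trend was fitted to these same libraries, so the direction of each move follows from the gene's GC content. The offset would also remove a response to the siRNAs that followed GC content, and this was not tested. The log2 fold change of PKP3 went from -1.18 to -0.10, that of JUP from -0.93 to -0.15, that of TJP3 from -1.001 to -0.14 and that of MMP14 from -0.65 to -0.03. CLDN3 moved from -1.68 to -0.48, SNAI1 from -1.20 to -0.63 and PLAUR from -0.96 to -0.56. MMP15 turned from -0.92 to 0.11 and TIMP1 from -0.53 to 0.03. At the GC-poor end ADAM9 moved from 0.47 to 0.02, ADAM10 from 0.42 to -0.06 and ADAM17 from 0.30 to -0.18. CLDN7 moved further from 0, from 0.75 to 1.41, and FN1 from -0.46 to -0.81. The medians of the lists of other genes moved too. That of the desmosome list went from -0.43 to -0.054, of the tight junction list from -0.071 to 0.0016, of the adherens junction list from 0.20 to 0.065, of the EMT list from -0.34 to -0.19 and of the protease list from -0.37 to 0.053. The adjusted p of CLDN7, 0.286, was the smallest among members in this fit, which called 0 genes in all. When the trend was instead subtracted from each siRNA's fold change, 2 members were at least 2-fold higher with siRNA 1 (CLDN7 and TIMP2, against 6.37% of all genes) and 2 with siRNA 2 (CLDN7 and CLDN4, against 4.71%). By the same rule 0 members were lower with siRNA 1, where 4.41% of all genes were, and 0 with siRNA 2, where 3.73% were.

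**Figure D4:**
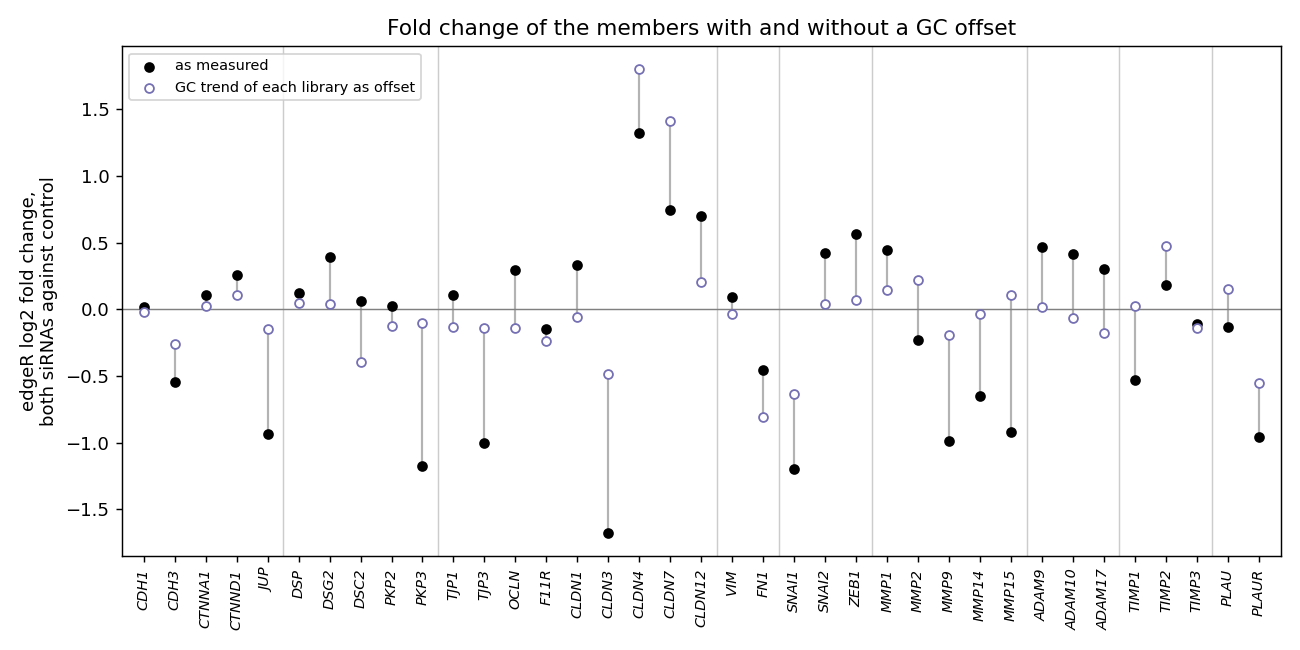
EdgeR log2 fold change of both siRNAs against the control for the 37 tested members, as measured (filled) and with the GC trend of each library as an offset (open). PKP3, JUP, TJP3 and MMP15 come close to 0 with the offset, and CLDN7 moves from 0.75 to 1.41.

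Because EMT factors act through E-boxes, the 250 bases before the start sites of the members were searched in RefSeq's promoter table (GRCh38.p14), which held 46 such windows for 27 members. The E-box letters searched were CAGGTG and its reverse complement CACCTG, which covers both strands, and these were in 13 of the 46 windows (28.3%), belonging to 11 genes, and in 17.5% of 34943 windows of the same length. Members without a window, which the search does not cover, include CDH1, CDH3, PKP2, PKP3, F11R and SNAI1. Start sites of the same gene can share bases, and ZEB1 supplied the most windows. The AP-1 letters TGANTCA, which read the same on both strands, overlapped no E-box match in these windows and were in 4 windows (8.70%), those of CDH2, CLDN4, MMP7 and PLAUR, and in 6.59% of all windows. Windows of CLDN3 and CLDN7, which lay on opposite sides of the control, and of TJP1, which stayed near it, are printed 5′ to 3′ on the gene's strand. They were taken from the windows that hold no exon in GENCODE 29, and the capitals mark E-box letters.

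CLDN3, chr7:73770271-73770520, minus strand: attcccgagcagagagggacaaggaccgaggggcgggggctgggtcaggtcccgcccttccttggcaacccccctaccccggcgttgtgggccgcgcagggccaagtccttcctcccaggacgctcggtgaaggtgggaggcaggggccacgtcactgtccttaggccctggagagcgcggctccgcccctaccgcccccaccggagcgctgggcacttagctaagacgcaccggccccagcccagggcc

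CLDN7, chr17:7263214-7263463, minus strand: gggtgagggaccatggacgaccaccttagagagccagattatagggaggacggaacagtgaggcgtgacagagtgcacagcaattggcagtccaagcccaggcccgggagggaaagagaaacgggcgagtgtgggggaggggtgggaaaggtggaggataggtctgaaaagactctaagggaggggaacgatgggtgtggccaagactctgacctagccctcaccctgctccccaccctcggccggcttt

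TJP1, chr15:29969050-29969299, minus strand: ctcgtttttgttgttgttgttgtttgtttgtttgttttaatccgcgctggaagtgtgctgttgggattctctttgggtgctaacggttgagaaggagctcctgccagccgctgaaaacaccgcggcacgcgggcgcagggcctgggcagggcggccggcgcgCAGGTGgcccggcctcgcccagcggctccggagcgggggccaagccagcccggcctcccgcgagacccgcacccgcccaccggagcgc

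The windows of CLDN3 (71.6% GC) and of this CLDN7 start site (60.4% GC) hold no E-box letters, while this TJP1 window (66.8% GC) has 1 match, 88 bases before its start. The remaining TJP1 windows hold no E-box letters, and that at chr15:29820675-29820924 (34.8% GC) is also free of exons. The other CLDN7 window, which lies wholly in annotated exons, holds 4 E-box matches, at 174, 135, 20 and 9 bases before the start. A match is a run of letters and says nothing of binding in these cells.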

How the data were processed

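The members and lists were chosen with earlier results of these data known. The deposited values are raw counts of reads per gene beside the authors' FPKM, which divides each count by a gene length and the library total, per the file headers and the values. The submitters' processing notes name Bowtie 0.12.2, GRCh38 and mm8 without a role. How reads were counted, with or without strand and with reads that fit several places, is not given in the sources used here. Gene coordinates matched GENCODE 29 (GRCh38) for 97.5% of shared genes.

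Counts were tested with edgeR 4.0.16 (R 4.3.3): TMM scaling, filterByExpr with a minimum count of 10 (17263 of 58302 genes), glmQLFit and glmQLFTest, Benjamini-Hochberg adjustment and a threshold of 0.05, with 2 siRNA libraries against 1 control and 1 residual degree of freedom. The fitting steps were checked on simulated counts with no GC trend and no difference between the siRNAs, so that check covers neither feature. SE is the log2 fold change, without its sign, divided by the square root of its F, which uses a variance moderated across genes. Each siRNA's value is its log2 CPM minus that of the control, with TMM-scaled library totals and a prior count of 2. The CPM printed for single genes uses unscaled totals. Alternatives were RLE or total count scaling, DESeq2 1.42.0, no filter, each siRNA library left out, a prior count of 0.5, log2(FPKM + 0.1) and GC correction (lowess fraction 0.3, longest GENCODE 29 transcript). Levels between genes use merged exon length. 1 marker of the fixed lists is not reported here. A gene could pass the filter through 1 library alone, and such genes stay in the counts and medians of the lists. Named genes are all members, DUOX2, marker genes with at least 50 counts in a library or a count of 0 (the latter chosen after their values were seen), and in each pathway list the 2 highest and 2 lowest with at least 50 counts in a library. CLDN11, CDH11 and JAM3 are named besides these.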

Additional observations from a re-analysis of the deposited data

How the results depend on the processing

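The count of members called was 0 in edgeR under RLE scaling, total count scaling, no filter and the GC offset, and 2 with DESeq2. Over all genes the count was 10 with TMM and RLE scaling and 9 with total counts, against 567 with DESeq2, 0 with no filter and 0 with the GC offset; the unadjusted p was under 0.05 for 3938 genes with no filter and 1747 with the offset. The members' median, 0.06, moved to -0.034 with total counts and -0.038 with the GC offset. The median over all genes, 0.014, moved to -0.086 with total counts and was 0.0098 with the GC offset. That of the members ranged from -0.038 to 0.028 when either siRNA library was left out, which leaves no residual degree of freedom and no test. Members at least 2-fold from the control with siRNA 1 numbered 7, all lower. They numbered 8 with a prior count of 0.5, RLE scaling, total counts or log2(FPKM + 0.1). With siRNA 2 the number was 3, and 4 with total counts or log2(FPKM + 0.1). With the GC trend removed there were 2 with siRNA 1, CLDN7 and TIMP2, which were higher and not among the 7. With the GC offset 13 members changed sign without passing the test: OCLN -0.14, MMP2 0.22, VIM -0.038, TIMP1 0.027, PKP2 -0.13, TJP1 -0.13, PLAU 0.16, DSC2 -0.39, CDH1 -0.020, CLDN1 -0.056, MMP15 0.11, ADAM10 -0.062 and ADAM17 -0.18. With total counts VIM went to -0.00071, PKP2 to -0.076, DSC2 to -0.034 and CDH1 to -0.077. CLDN4 went from 1.32 to 2.07 without siRNA 1 and to -0.35 without siRNA 2, and TIMP2 from 0.19 to -0.85 without siRNA 1 and 0.78 without siRNA 2. No paired analysis was possible because there is 1 control library, which carries no number. Counts under about 50, as for MMP1, MMP2 and MMP9, limit what these depths can show.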

Other observations

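Factors that hold the epithelial state were described from a list of 15 genes, of which 10 were tested. None passed edgeR's test over all genes, and 3 were lower and 0 higher at an unadjusted p under 0.05, where 14.5% and 11.5% of all genes were. CDX2, an intestinal identity factor, had 2001, 893 and 1204 counts in the control, siRNA 1 and siRNA 2 libraries (edgeR log2 fold change -0.95, adjusted p = 0.125), and -0.51 with the GC offset. OVOL2, a repressor of EMT genes, had 75, 39 and 21 counts (edgeR adjusted p = 0.168), and -0.77 with the GC offset. ESRP1, which directs epithelial splicing, had 1281, 1834 and 1642 counts and GRHL1, a grainyhead factor, had 338, 491 and 426, and these moved to 0.10 and 0.08 with the offset. Among epithelial markers KRT19, a keratin of simple epithelia, had 16482, 6102 and 8563 counts (edgeR log2 fold change -1.18, adjusted p = 0.112), and -0.39 with the offset, while EPCAM stayed above the control in both fits, at 0.65 and 0.52.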
